A study of Homo sapiens with 15 samples.

Results

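The genes described here are 44 interferon-stimulated and nucleic acid sensing genes, taken out of the 58735 genes that the deposited tables list. They were chosen by name from knowledge of the pathway, but with earlier results of these data known. Of these, 43 were matched by their GENCODE v29 symbol, and MB21D1 was matched through its current symbol CGAS. The cells were HEK293T clones carrying lentiCRISPRv2, which holds Cas9 and a guide RNA, selected with puromycin and grown from limiting dilution without any interferon treatment named in the labels or the methods. Non-target carried a guide with no target in the genome, with the genotype given as WT, and C9orf89-CKO, MLPH-CKO, MAGI2-CKO and RHBDD2-CKO each carried a guide against the gene in their name. Each of the 5 groups was 1 clone with 3 libraries, each from a separate well of a six-well plate, so that the effect of a guide and the history of a clone cannot be told apart. The p-values measure the spread between wells only, and the 4 comparisons share the Non-target wells.

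Cells recognise viral RNA and DNA with a small set of sensor proteins, which pass the signal through adaptors to the transcription factors IRF3 and IRF7 and so switch on the interferon genes. Secreted interferon then acts through its receptors and the factors STAT2 and IRF9 on a large set of interferon-stimulated genes, whose promoters carry a short element read by these factors. Many of these genes have a low level without interferon, and HEK293T, a human embryonic kidney line that expresses the SV40 large T antigen, is known for a weak response to DNA in the cytoplasm.

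The values are FPKM, the number of sequenced fragments on a gene scaled by the length of its exons and by the size of the library, so that levels can be set side by side between genes. A library held 15517856 to 19489918 fragments on genes, with medians of 16265355 in Non-target, 16429553 in C9orf89-CKO, 18488218 in MLPH-CKO, 16209432 in RHBDD2-CKO and 19423812 in MAGI2-CKO. In every group the library numbered 1 stood apart from the other two. Pairs with the library numbered 1 had a chi-square per gene of 14.6 to 24.8, against 2.40 to 6.54 for the libraries numbered 2 and 3, so calls are also given without the 5 libraries numbered 1.

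The targeted genes tell little about the labels. C9orf89 had 5.702, 7.71 and 6.27 FPKM in Non-target and 4.34, 4.27 and 4.34 in C9orf89-CKO (log2 fold change -0.58 ± 0.10, SE), and RHBDD2 had 27.4, 38.1 and 34.9 FPKM in Non-target and 11.2, 13.5 and 12.4 in RHBDD2-CKO (log2 fold change -1.42 ± 0.14, SE). Neither was lower in its own clone alone. RHBDD2 was also lower in MAGI2-CKO, at 11.7, 13.8 and 16.02 FPKM (log2 fold change -1.27 ± 0.14, adjusted p = 1.55e-05 in limma), and C9orf89 in RHBDD2-CKO, at 4.52, 5.17 and 4.69 FPKM (-0.44 ± 0.10, adjusted p = 0.00489). MAGI2 was between 0.0523 and 0.123 FPKM in all 15 libraries and MLPH was listed at 0 in all of them. A small insertion or deletion need not lower the RNA, so these levels do not check the edits.

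Of 8 genes expressed in HEK293T cells, 7 were above 0 FPKM in every library, among them VIM, the intermediate filament protein vimentin, at 45.2 to 82.2 FPKM as group means. The neurofilament gene NEFM was the exception, at 38.4, 21.4 and 21.8 FPKM in Non-target, 0.0705, 0 and 0.0117 in MAGI2-CKO and 1.89, 0.957 and 1.19 in RHBDD2-CKO. NEFL, of the same family, was at 16.8, 20.5 and 19.1 FPKM in Non-target and 0.903, 0.914 and 1.14 in RHBDD2-CKO. Others of these genes differed between clones as well. LHX1 was at 0.983, 1.10 and 0.922 FPKM in Non-target and 0.395, 0.484 and 0.478 in RHBDD2-CKO. KRT8 had group means of 5.09 FPKM in Non-target, 2.61 in C9orf89-CKO and 15.3 in MLPH-CKO. The sum of the 8 genes was 80.6 to 194 FPKM, lowest in RHBDD2-CKO. The 11 blood cell genes looked at summed to 0.198 to 1.06 FPKM, with NKG7, a granule protein of killer cells, the most abundant over all libraries, at group means of 0.0421 to 0.587 FPKM and MPO and MS4A1 at 0 in every library. PTPRC, the marker of all white blood cells, reached at most 0.00597 FPKM. The sum of the 11 genes reached its highest value in MAGI2-CKO, at 0.8498 to 1.06 FPKM, overlapping with MLPH-CKO at 0.198 to 0.878 FPKM, and its part in the results was not tested. Of 5 genes of other adherent cells, COL1A1, a collagen chain, was the most abundant, at group means of 2.43 FPKM in Non-target, 4.12 in C9orf89-CKO, 4.48 in MLPH-CKO, 3.28 in RHBDD2-CKO and 4.75 in MAGI2-CKO. It was higher than in Non-target in C9orf89-CKO (log2 fold change 0.74 ± 0.17, SE, adjusted p = 0.00739 in limma), MLPH-CKO (0.83, adjusted p = 0.00311) and MAGI2-CKO (0.93, adjusted p = 0.001104), and the part of such a shift in the results was not tested. COL1A2, PDGFRB, PECAM1 and VWF reached at most 0.104 FPKM. In bulk RNA, fewer cells that express a gene and less of its RNA per cell cannot be told apart.

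The 44 genes spanned from silent to well expressed. The mean over all libraries was at least 10 FPKM for 9 genes, from 1 to under 10 FPKM for 12 genes and under 1 FPKM for 23 genes. IFNGR1, IFNGR2, IFNAR1, IRF3 and MAVS were among the 9 highest, but the receptor chain IFNAR2 and the adaptor TMEM173 were under 1 FPKM, as were OAS1, OAS2, MX1, MX2, RSAD2, IFIT2, IFIT3 and IFI44 of the classical interferon-induced genes. ADAR, which edits adenosine to inosine in double-stranded RNA, was the most highly expressed, at 39.7 ± 2.28 FPKM (SD, n = 3) in Non-target. It was followed in Non-target by the receptor chains IFNGR2 at 18.5 ± 1.41 FPKM and IFNGR1 at 17.2 ± 0.573 FPKM and by IRF3 at 15.8 ± 1.84 FPKM, whose libraries overlapped with those of IFNGR2.

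A gene was tested when at least 3 libraries had 0.5 FPKM or more, which held for 27 of the 44 genes and for 16175 of all genes. The other 17 were IFNAR2, IRF9, DHX58, MB21D1, OAS1, OAS2, OASL, ISG20, IFIT2, IFIT3, MX1, MX2, RSAD2, IFI27, IFI44, IFI44L and XAF1. OAS1, OAS2 and XAF1 were listed at 0 in all 15 libraries. With 3 fragments taken as the limit that a count of 0 allows, OAS1 was below 0.0311 to 0.0392 FPKM, depending on the library, where the limit covers counting error only. Another 3 genes, MX2, RSAD2 and IFI44, had at most 3 fragments in any library. MB21D1, which encodes the DNA sensor cGAS, reached at most 0.07397 FPKM and MX1, an antiviral GTPase, at most 0.0253 FPKM. IFNAR2, the second chain of the type I interferon receptor, was at 0.4996, 0.4899 and 0.741 FPKM in Non-target, and IRF9, the DNA-binding partner of STAT2, at 0.148, 0.238 and 0.0601 FPKM. These last values are uncertain, since 83.2% of the exon length of IFNAR2 and 48.4% of that of IRF9 are also annotated to another gene.

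The element read by the STAT2 and IRF9 complex and by the IRF factors was looked for in the promoters, and matches were found in some silent and some expressed genes of the list. The RefSeq promoters (GRCh38.p14, 250 bases before to 50 bases after the start) were given for 32 of the 44 genes. It was searched as GAAA, any 2 bases and GAAA. These letters, on either strand and with overlapping matches counted, stood in 17 of the 32 (53.1%) and in 1255 of 35116 promoters of the same length (3.57%). Among genes that were tested the share was 11 of 22, and among genes too low to test it was 6 of 10. The letters TTCNNNGAA, which STAT dimers bind, stood in 7 of the 32 (21.9%) and in 2689 of all promoters (7.66%). A match is a description of the letters only.

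Windows around the matches are given below for 6 genes called in most clones or setting one apart, for ISG15, which was lower in 1 clone, for EIF2AK2, with no call, and for IFI44, with almost no RNA. They are written 5′ to 3′ on the strand of the gene, with matches in capitals, which on the opposite strand read TTTC, any 2 bases and TTTC. The windows are chr1:27672256-27672368 (minus strand) for IFI6, chr11:313980-314063 (plus) for IFITM1, chr11:320866-320932 (minus) for IFITM3, chr12:112938311-112938491 (plus) for OAS3, chr10:89414503-89414593 (plus) for IFIT5, chr3:122564312-122564361 (plus) for DTX3L, chr1:1013364-1013419 (plus) for ISG15, chr2:37156957-37157006 (minus) for EIF2AK2 and chr1:78649751-78649800 (plus) for IFI44.
IFI6: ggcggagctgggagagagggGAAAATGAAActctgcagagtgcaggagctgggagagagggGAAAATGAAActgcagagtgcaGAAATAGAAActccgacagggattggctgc
IFITM1: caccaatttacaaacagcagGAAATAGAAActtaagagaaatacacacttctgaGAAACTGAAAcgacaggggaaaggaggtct
IFITM3: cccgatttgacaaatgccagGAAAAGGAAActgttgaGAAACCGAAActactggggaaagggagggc
OAS3: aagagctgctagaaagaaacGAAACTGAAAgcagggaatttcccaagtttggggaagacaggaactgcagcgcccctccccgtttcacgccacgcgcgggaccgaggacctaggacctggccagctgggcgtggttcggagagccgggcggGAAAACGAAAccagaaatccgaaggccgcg
IFIT5: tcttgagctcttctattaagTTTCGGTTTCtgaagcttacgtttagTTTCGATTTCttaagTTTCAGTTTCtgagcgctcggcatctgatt
DTX3L: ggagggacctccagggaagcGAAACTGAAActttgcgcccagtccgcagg
ISG15: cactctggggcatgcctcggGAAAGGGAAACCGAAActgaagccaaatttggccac
EIF2AK2: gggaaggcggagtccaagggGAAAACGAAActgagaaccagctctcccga
IFI44: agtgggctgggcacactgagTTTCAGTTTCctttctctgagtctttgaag
IFI6 and IFIT5 held 3 matches each, IFITM1, IFITM3, OAS3 and ISG15 held 2 each, and the 2 in ISG15 overlapped. No match was found in the windows of IFI35, TRIM25, ADAR, STAT2 and PARP9. IRF3, IRF7, IFITM2, USP18 and TMEM173 had no entry in the table used.

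More of the genes were higher than lower in each CKO clone compared with Non-target. In limma on log2(FPKM + 0.1), 12 of the 27 tested genes were higher and 3 lower in C9orf89-CKO, against 12.9% and 13.1% of all tested genes. In MAGI2-CKO 11 were higher and 6 lower, against 17.0% and 19.1%. In MLPH-CKO 12 were higher and 3 lower, against 14.5% and 15.5%, and in RHBDD2-CKO 9 were higher and 4 lower, against 17.4% and 16.7%. The median log2 fold change of the 27 genes was 0.30 in C9orf89-CKO, 0.37 in MLPH-CKO, 0.23 in RHBDD2-CKO and 0.25 in MAGI2-CKO, and the median of all tested genes was within 0.01 of 0 in each.

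IRF7, TRIM25, IFITM1, IFITM3, IFI6 and IFI35 were higher in all 4 clones, and TMEM173 was lower in all 4. In RHBDD2-CKO the call of IFITM3 was lost in 14 and that of IFITM1 in 7 of 25 other settings. That of TMEM173 was lost there in 7 of 24. ADAR and OAS3 were higher in some clones and lower in others. IRF1, DDX58, EIF2AK2 and BST2 passed the threshold in none in this fit of all 15 libraries. With the replicate number as a block, DDX58 passed in RHBDD2-CKO (adjusted p = 0.0443). Across the 5 groups, 22 of the 27 genes differed by the moderated F test, against 61.0% of all tested genes. All 4 comparisons rest on the same Non-target wells.

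Without the libraries numbered 1, 11 genes were higher and 4 lower in C9orf89-CKO (15.2% and 17.2% of all tested genes), 10 and 6 in MAGI2-CKO (18.7% and 21.7%), 13 and 3 in MLPH-CKO (16.6% and 20.3%) and 9 and 5 in RHBDD2-CKO (19.8% and 22.2%). Of the 60 calls of a gene in a clone, 54 were kept in the same direction, with no share over all tested genes to set beside this count. The 6 that were not were IFNAR1 and OAS3 in MAGI2-CKO, IFITM1 and TMEM173 in RHBDD2-CKO, ADAR in MLPH-CKO and IFIT1 in C9orf89-CKO. Another 7 were called here but not with all 15 libraries, IFNGR1 in MLPH-CKO, MAGI2-CKO and RHBDD2-CKO, IFNGR2 in C9orf89-CKO, EIF2AK2 in MLPH-CKO and RHBDD2-CKO and IFIT1, which was lower, in RHBDD2-CKO (adjusted p = 0.0337). Of the genes higher in all 4 clones, 5 of 6 were so again. TMEM173 was then lower in 3 clones, and IFNGR1 and IFNGR2 were lower in all 4.

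**Figure D1:**
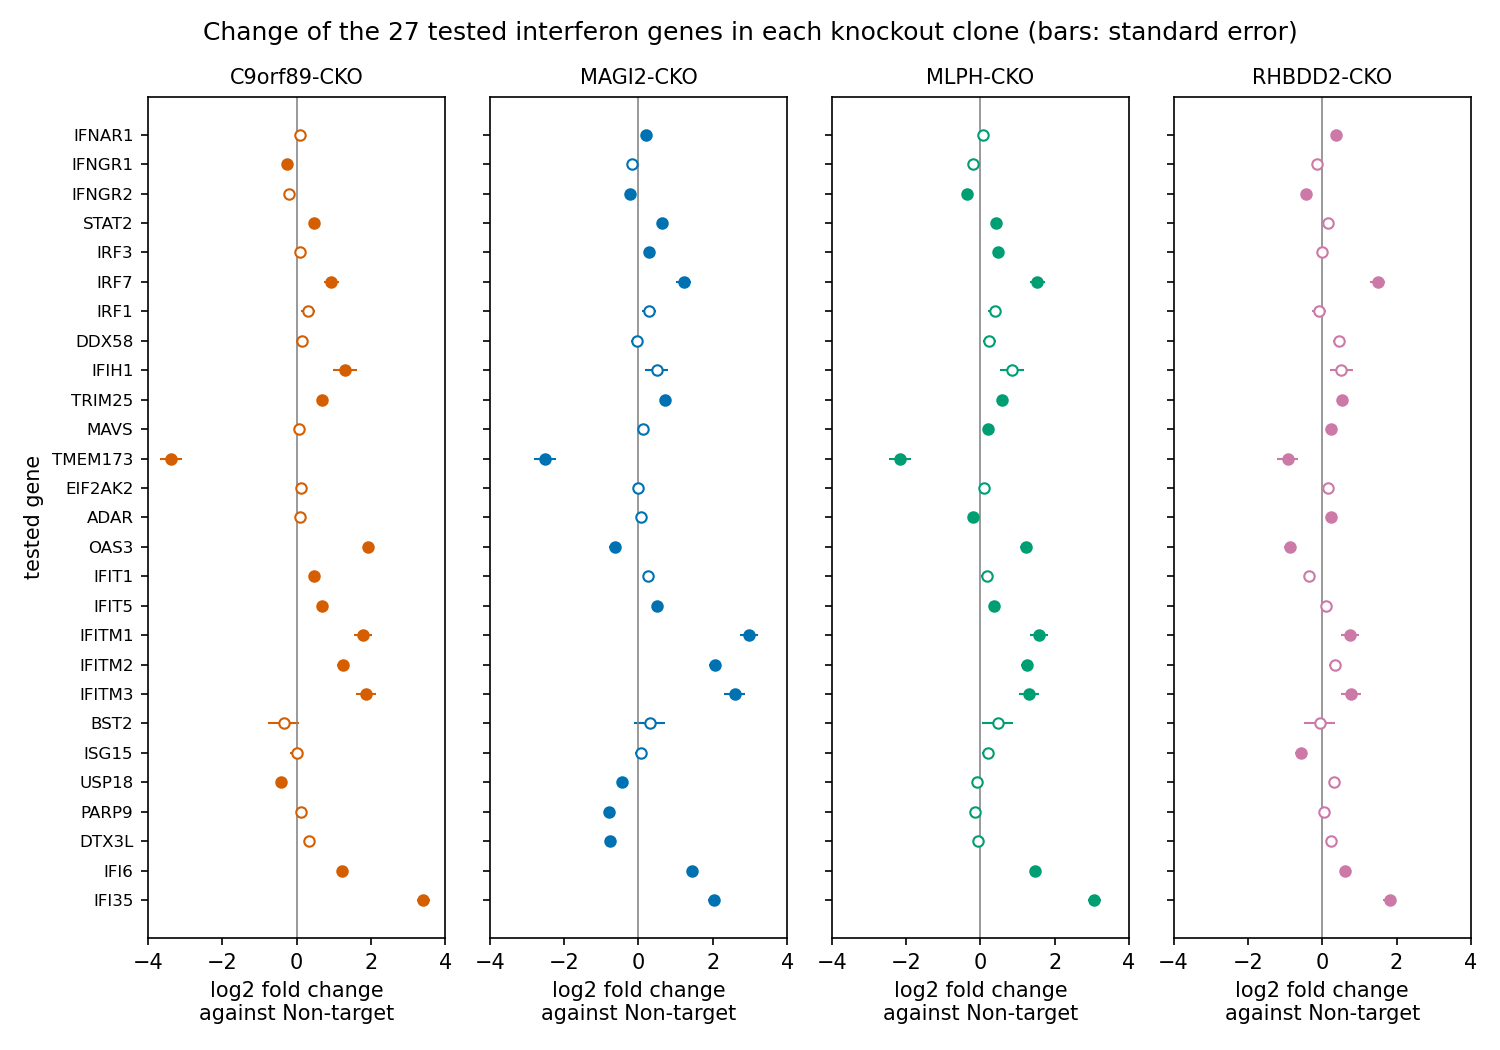
Log2 fold change against Non-target (horizontal axis, bars show the standard error) of the 27 tested genes in each CKO clone, ordered by role, with filled points for an adjusted p under 0.05 in limma. IFI35 and the IFITM genes lie to the right in every panel, TMEM173 lies to the left, and OAS3 changes side between clones.

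Of the 4 receptor chains, IFNGR2 was lower in 3 clones, IFNGR1 was lower in 1 and IFNAR1 was higher in 2. IFNGR2 was at 16.9, 19.2 and 19.5 FPKM in the 3 Non-target libraries, 15.2, 15.8 and 16.7 in C9orf89-CKO, 15.7, 15.03 and 12.5 in MLPH-CKO, 15.6, 15.99 and 15.5 in MAGI2-CKO and 13.1, 13.7 and 13.8 in RHBDD2-CKO. All libraries of each CKO clone lay below those of Non-target. Against Non-target the log2 fold changes (SE 0.082) were -0.21 for C9orf89-CKO (adjusted p = 0.0727), -0.36 for MLPH-CKO (adjusted p = 0.00483), -0.23 for MAGI2-CKO (adjusted p = 0.0399) and -0.45 for RHBDD2-CKO (adjusted p = 0.00116). The call in MAGI2-CKO was lost on leaving out any of Non-target replicates 2 and 3, C9orf89-CKO replicate 2, MAGI2-CKO replicates 1, 2 and 3 or RHBDD2-CKO replicates 2 and 3 (adjusted p = 0.0509 to 0.135), and that in MLPH-CKO with only the 6 contrasted libraries (adjusted p = 0.0613). IFNGR1 passed in C9orf89-CKO, with a log2 fold change of -0.26 ± 0.079 (adjusted p = 0.0293), and was lost on leaving out any of Non-target replicates 2 and 3 or C9orf89-CKO replicate 1 (adjusted p = 0.0822 to 0.10999). Without the libraries numbered 1, IFNGR1 was lower in all 4 clones, with adjusted p = 0.0182 in C9orf89-CKO, 0.0136 in MLPH-CKO, 0.0101 in RHBDD2-CKO and 0.0116 in MAGI2-CKO, and so was IFNGR2, with adjusted p = 0.0495 in C9orf89-CKO. IFNAR1, the first chain of the type I receptor, passed in MAGI2-CKO (0.21 ± 0.069, adjusted p = 0.0308) and RHBDD2-CKO (0.37 ± 0.069, adjusted p = 0.00139). The former was lost without the libraries numbered 1 (adjusted p = 0.185) and on leaving out any of Non-target replicates 1 and 3 or MAGI2-CKO replicates 1 and 2 (adjusted p = 0.0735 to 0.125).

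Among the transcription factors, IRF7 was higher in every clone and STAT2 and IRF3 in some. IRF7, which drives the interferon genes and is itself induced by interferon, was at 0.616, 0.344 and 0.477 FPKM in Non-target, 1.11, 0.845 and 1.03 in C9orf89-CKO, 1.21, 1.899 and 1.62 in MLPH-CKO, 1.12, 1.29 and 1.25 in MAGI2-CKO and 1.17, 1.78 and 1.61 in RHBDD2-CKO. No library of a CKO clone overlapped with Non-target. In limma the log2 fold changes (SE 0.21) were 0.94 for C9orf89-CKO (adjusted p = 0.00538), 1.54 for MLPH-CKO (adjusted p = 0.000143), 1.21 for MAGI2-CKO (adjusted p = 0.000593) and 1.49 for RHBDD2-CKO (adjusted p = 0.000153). Its level was still low, at a mean of 1.58 FPKM in MLPH-CKO, where the mean was highest. The libraries of MLPH-CKO and RHBDD2-CKO overlapped, and their direct contrast did not pass (adjusted p = 0.894 in limma).

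STAT2, a signalling factor downstream of the type I receptor, was 4.51, 4.25 and 4.39 FPKM in Non-target and 6.86, 7.32 and 6.43 in MAGI2-CKO, the highest of the clones by its mean. Its MAGI2-CKO libraries overlapped with those of C9orf89-CKO, and the 2 clones did not differ in a direct contrast past the threshold (adjusted p = 0.182). Its log2 fold changes (SE 0.082) were 0.47 for C9orf89-CKO (adjusted p = 0.00106), 0.42 for MLPH-CKO (adjusted p = 0.00187), 0.63 for MAGI2-CKO (adjusted p = 6.31e-05) and 0.16 for RHBDD2-CKO (adjusted p = 0.144), the last not past the threshold. IRF3 was at 14.9, 17.9 and 14.6 FPKM in the 3 Non-target libraries, 16.7, 16.2 and 17.3 in C9orf89-CKO, 20.7, 22.6 and 22.9 in MLPH-CKO, 17.9, 19.3 and 20.5 in MAGI2-CKO and 14.8, 15.9 and 16.8 in RHBDD2-CKO. IRF3, the constitutive factor that the sensors activate, had log2 fold changes (SE 0.083) of 0.29 for MAGI2-CKO (adjusted p = 0.0157) and 0.49 for MLPH-CKO (adjusted p = 0.000771) and did not pass in C9orf89-CKO (0.091) or RHBDD2-CKO (0.0070). The call in MAGI2-CKO was lost on leaving out any of Non-target replicates 1 and 3 or MAGI2-CKO replicate 3 (adjusted p = 0.0567 to 0.0722). The 100 tested genes nearest to IRF3 had median log2 fold changes of 0.23 in MAGI2-CKO and 0.17 in MLPH-CKO, so that the difference in MAGI2-CKO was close to that of its neighbours. IRF3 shares 19.3% of its exon length with BCL2L12 on the opposite strand, and the kit named does not mark strand. IRF1, which is induced mainly by interferon gamma, was between 0.504 and 0.979 FPKM in all 15 libraries.

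The sensors and adaptors split. TRIM25, the ubiquitin ligase that helps to activate the RNA sensor RIG-I, was higher in all 4 clones and TMEM173, which encodes the DNA-sensing adaptor STING, was lower in all 4. TRIM25 was at 6.29, 6.35 and 6.57 FPKM in the 3 Non-target libraries, 10.2, 10.3 and 10.2 in C9orf89-CKO, 9.29, 10.1 and 9.74 in MLPH-CKO, 10.4, 11.04 and 10.5 in MAGI2-CKO and 9.02, 9.22 and 9.47 in RHBDD2-CKO. The libraries lay close together within each group, and every CKO library was above every Non-target library. Compared with the control clone, log2 fold changes (SE 0.049) were 0.67 for C9orf89-CKO (adjusted p = 9.43e-07), 0.59 for MLPH-CKO (adjusted p = 2.71e-06), 0.72 for MAGI2-CKO (adjusted p = 3.19e-07) and 0.52 for RHBDD2-CKO (adjusted p = 6.46e-06), and the calls held under all settings tried.

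TMEM173 was at 1.23, 1.34 and 1.02 FPKM in the 3 Non-target libraries, 0, 0.0288 and 0.0468 in C9orf89-CKO, 0.156, 0.179 and 0.241 in MLPH-CKO, 0.107, 0.06697 and 0.226 in MAGI2-CKO and 0.543, 0.537 and 0.655 in RHBDD2-CKO. Non-target was the highest group and C9orf89-CKO the lowest, with 1 library listed at 0, and RHBDD2-CKO lay in between. Every CKO library was below every Non-target library. The ratio of the mean FPKM to that of Non-target was 0.1605 in MLPH-CKO, 0.483 in RHBDD2-CKO and 0.111 in MAGI2-CKO. The log2 fold changes on the log2(FPKM + 0.1) scale (SE 0.29), which understates the change of low genes, were -3.38 for C9orf89-CKO (adjusted p = 3.92e-06), -2.15 for MLPH-CKO (adjusted p = 0.000142), -2.52 for MAGI2-CKO (adjusted p = 2.64e-05) and -0.93 for RHBDD2-CKO (adjusted p = 0.02596). In RHBDD2-CKO the call was lost with a pseudocount of 0.01 (adjusted p = 0.202), after quantile normalization (adjusted p = 0.0528), without the libraries numbered 1 (adjusted p = 0.112) and on leaving out any of Non-target replicates 1 and 2 or RHBDD2-CKO replicates 1 and 2 (adjusted p = 0.065003 to 0.0928).

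MAVS, the mitochondrial adaptor of the RNA sensors, was 10.5, 10.1 and 11.2 FPKM in Non-target, 11.5, 10.8 and 10.8 in C9orf89-CKO, 11.8, 12.3 and 12.4 in MLPH-CKO, 11.4, 11.7 and 11.6 in MAGI2-CKO and 12.8, 12.3 and 12.6 in RHBDD2-CKO. It passed with small changes (SE 0.052) of 0.19 for MLPH-CKO (adjusted p = 0.0128) and 0.24 for RHBDD2-CKO (adjusted p = 0.00322). The former was lost on leaving out Non-target replicate 2 (adjusted p = 0.0517) and with only the 6 contrasted libraries (adjusted p = 0.0667). Of the RNA sensors, DDX58 (RIG-I) was between 0.659 and 1.13 FPKM in all libraries. It had no call in the fit without the replicate block (adjusted p = 0.0556 in RHBDD2-CKO, and 0.0443 with the block). IFIH1 (MDA5) was at 0.0976, 0.266 and 0.257 FPKM in Non-target and 0.522, 0.663 and 0.705 in C9orf89-CKO, where its log2 fold change of 1.30 ± 0.32 passed (adjusted p = 0.00911). Non-target was below 0.5 FPKM in all its libraries, so IFIH1 entered the test through the clones in which it was higher, and its call is no support for a rise among the genes as a whole.

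The enzymes that act on RNA differed from each other. OAS3, which makes the second messenger that activates RNase L, moved in opposite directions, while its relatives OAS1 and OAS2 were at 0 and OASL at most 0.146 FPKM. OAS3 was at 0.634, 0.697 and 0.732 FPKM in the 3 Non-target libraries, 2.84, 3.09 and 2.79 in C9orf89-CKO, 1.699, 1.904 and 1.66 in MLPH-CKO, 0.325, 0.419 and 0.484 in MAGI2-CKO and 0.347, 0.408 and 0.253 in RHBDD2-CKO. C9orf89-CKO and MLPH-CKO lay above all Non-target libraries, and MAGI2-CKO and RHBDD2-CKO below them. On the log2 scale the differences from Non-target (SE 0.16) were 1.93 for C9orf89-CKO (adjusted p = 2.36e-06), 1.23 for MLPH-CKO (adjusted p = 8.49e-05), -0.64 for MAGI2-CKO (adjusted p = 0.006597) and -0.87 for RHBDD2-CKO (adjusted p = 0.00109). The call in MAGI2-CKO was lost without the libraries numbered 1 (adjusted p = 0.0611). The 2 matches in its promoter are among the sequences printed above.

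ADAR was at 40.98, 37.1 and 41.1 FPKM in the 3 Non-target libraries, 40.8, 44.6 and 42.1 in C9orf89-CKO, 32.9, 35.3 and 35.96 in MLPH-CKO, 40.7, 42.4 and 42.5 in MAGI2-CKO and 45.6, 47.9 and 47.6 in RHBDD2-CKO. MLPH-CKO lay below all Non-target libraries and RHBDD2-CKO above them, and both differences were small beside those of OAS3. The log2 fold changes (SE 0.058) were 0.098 for C9orf89-CKO (adjusted p = 0.243), -0.19 for MLPH-CKO (adjusted p = 0.0228), 0.077 for MAGI2-CKO (adjusted p = 0.334) and 0.24 for RHBDD2-CKO (adjusted p = 0.00588). The call in MLPH-CKO was lost after quantile normalization (adjusted p = 0.202), with only the 6 contrasted libraries (adjusted p = 0.0907), without the libraries numbered 1 (adjusted p = 0.0937) and on leaving out any of Non-target replicates 1 and 3 or MLPH-CKO replicate 1 (adjusted p = 0.0726 to 0.0883). EIF2AK2, the kinase PKR that halts translation on double-stranded RNA, was 6.70 to 8.83 FPKM in all 15 libraries and passed in no clone, with log2 fold changes of -0.022 to 0.17. Without the libraries numbered 1 it was higher in MLPH-CKO (adjusted p = 0.0487) and RHBDD2-CKO (adjusted p = 0.0342). ISG20, an exonuclease, reached at most 0.178 FPKM.

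In the IFIT family, whose members bind foreign RNA, IFIT5 was the most expressed. IFIT5 was at 6.19, 5.76 and 5.89 FPKM in the 3 Non-target libraries, 9.13, 10.04 and 9.804 in C9orf89-CKO, 7.94, 8.16 and 7.12 in MLPH-CKO, 8.72, 8.17 and 8.51 in MAGI2-CKO and 7.02, 5.46 and 6.86 in RHBDD2-CKO. C9orf89-CKO, MAGI2-CKO and MLPH-CKO lay above all Non-target libraries, and RHBDD2-CKO overlapped with them. Against Non-target the log2 fold changes (SE 0.089) were 0.69 for C9orf89-CKO (adjusted p = 0.000117), 0.37 for MLPH-CKO (adjusted p = 0.00694), 0.50 for MAGI2-CKO (adjusted p = 0.000738) and 0.11 for RHBDD2-CKO (adjusted p = 0.394). IFIT1, which binds RNA lacking a methylated cap, was 1.58, 1.74 and 1.804 FPKM in Non-target and 2.403, 2.26 and 2.58 in C9orf89-CKO, where it passed with a log2 fold change of 0.48 ± 0.14 (adjusted p = 0.0222). This call was lost without the libraries numbered 1 (adjusted p = 0.0709) and on leaving out any of Non-target replicates 1 and 2 or C9orf89-CKO replicates 1 and 3 (adjusted p = 0.05004 to 0.0758). IFIT2 and IFIT3, which lie beside them on chromosome 10, stayed at or below 0.207 and 0.477 FPKM. The 100 tested genes nearest to IFIT5 had median log2 fold changes of 0.30 in C9orf89-CKO, 0.34 in MLPH-CKO, -0.058 in RHBDD2-CKO and 0.31 in MAGI2-CKO.

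The IFITM genes encode small membrane proteins that block the entry of enveloped viruses. All 3 lie side by side on the short arm of chromosome 11, IFITM1 at chr11:313506-315272, IFITM2 at chr11:307631-315272 and IFITM3 at chr11:319669-327537 (GRCh38, GENCODE v29). They were highest in MAGI2-CKO by their means, although for IFITM3 the direct contrast with C9orf89-CKO did not pass (0.73, adjusted p = 0.0740 in limma). IFITM1 was at 1.903, 1.73 and 2.85 FPKM in the 3 Non-target libraries, 7.07, 6.94 and 8.61 in C9orf89-CKO, 9.53, 6.78 and 4.14 in MLPH-CKO, 17.2, 16.3 and 18.5 in MAGI2-CKO and 3.93, 3.66 and 3.301 in RHBDD2-CKO. The MAGI2-CKO libraries lay above every other library and the Non-target libraries below every other one. The mean FPKM was 3.49-fold that of Non-target in C9orf89-CKO, 3.15-fold in MLPH-CKO, 1.68-fold in RHBDD2-CKO and 8.02-fold in MAGI2-CKO. In limma the log2 fold changes (SE 0.24) were 1.78 for C9orf89-CKO (adjusted p = 0.000173), 1.57 for MLPH-CKO (adjusted p = 0.000377), 2.98 for MAGI2-CKO (adjusted p = 1.44e-06) and 0.75 for RHBDD2-CKO (adjusted p = 0.0302).

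IFITM2 was at 5.53, 5.27 and 4.95 FPKM in the 3 Non-target libraries, 13.6, 11.5 and 12.4 in C9orf89-CKO, 16.1, 12.9 and 9.76 in MLPH-CKO, 23.4, 20.2 and 22.9 in MAGI2-CKO and 8.28, 5.78 and 6.37 in RHBDD2-CKO. As with IFITM1, MAGI2-CKO lay above all other libraries and Non-target below all of them. Compared with the control clone, log2 fold changes (SE 0.16) were 1.24 for C9orf89-CKO (adjusted p = 0.0001299), 1.26 for MLPH-CKO (adjusted p = 9.28e-05), 2.06 for MAGI2-CKO (adjusted p = 1.10e-06) and 0.35 for RHBDD2-CKO (adjusted p = 0.113), the last not past the threshold. IFITM3 was at 0.647, 1.15 and 0.972 FPKM in the 3 Non-target libraries, 2.52, 3.79 and 4.59 in C9orf89-CKO, 1.71, 2.24 and 3.52 in MLPH-CKO, 4.82, 6.54 and 6.54 in MAGI2-CKO and 1.47, 1.58 and 1.82 in RHBDD2-CKO. Non-target again lay below all others. On the log2 scale the differences from Non-target (SE 0.27) were 1.86 for C9orf89-CKO (adjusted p = 0.000307), 1.31 for MLPH-CKO (adjusted p = 0.00289), 2.59 for MAGI2-CKO (adjusted p = 1.23e-05) and 0.78 for RHBDD2-CKO (adjusted p = 0.0421). The spread in MLPH-CKO was wide, and IFITM1 and IFITM2 were highest in its library numbered 1, in which IFITM3 was lowest.

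The calls in RHBDD2-CKO were the least firm. Without the filter on low values, those of IFITM1 and IFITM3 were lost. IFITM3 was also lost after quantile normalization, without the variance trend and with a pseudocount of 1. That of IFITM1 was lost with voom weights (adjusted p = 0.101), without the libraries numbered 1 (adjusted p = 0.106) and on leaving out any of Non-target replicates 1 and 2 or RHBDD2-CKO replicates 1 and 2 (adjusted p = 0.0702 to 0.117). That of IFITM3 was lost with voom weights (adjusted p = 0.1404) and on leaving out any of Non-target replicates 1 and 3, C9orf89-CKO replicate 2, MAGI2-CKO replicates 2 and 3, MLPH-CKO replicate 2 or RHBDD2-CKO replicates 1, 2 and 3 (adjusted p = 0.05202 to 0.1498). The 3 genes have near-identical sequences, and IFITM1 and IFITM2 share annotated exons, 32.5% of the length of IFITM1 and 22.7% of that of IFITM2, so that the split of fragments between the genes is uncertain. IFITM3 shares 21.3% of its exon length with AC136475.5 on the opposite strand. The 100 tested genes nearest to them, with which IRF7 shares its chromosome end, had median log2 fold changes of -0.018 in C9orf89-CKO, -0.16 in MLPH-CKO, -0.059 in RHBDD2-CKO and 0.091 in MAGI2-CKO. BST2, the tether of budding virus, was between 0.214 and 0.930 FPKM and passed in no clone.

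ISG15, a ubiquitin-like protein that is among the most strongly induced by interferon, did not move with the IFITM genes. ISG15 was at 4.502, 3.23 and 3.997 FPKM in the 3 Non-target libraries, 4.12, 3.599 and 3.89 in C9orf89-CKO, 4.95, 4.005 and 4.52 in MLPH-CKO, 3.45, 4.0001 and 4.79 in MAGI2-CKO and 3.101, 2.76 and 2.02 in RHBDD2-CKO. RHBDD2-CKO lay below all other libraries, and the other groups overlapped. The log2 fold changes (SE 0.16) were -0.0033 for C9orf89-CKO (adjusted p = 0.994), 0.20 for MLPH-CKO (adjusted p = 0.397), 0.061 for MAGI2-CKO (adjusted p = 0.815) and -0.56 for RHBDD2-CKO (adjusted p = 0.0187). The call was lost with only the 6 contrasted libraries (adjusted p = 0.0846), with voom weights (adjusted p = 0.0518) and on leaving out any of Non-target replicates 1 and 3 or RHBDD2-CKO replicate 3 (adjusted p = 0.05596 to 0.08501). ISG15 lies near the end of chromosome 1 among neighbours that were higher, with a median log2 fold change of its 100 nearest tested genes of 0.41 in C9orf89-CKO, 0.49 in MLPH-CKO, 0.47 in RHBDD2-CKO and 0.62 in MAGI2-CKO.

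USP18 was at 9.95, 13.5 and 13.2 FPKM in the 3 Non-target libraries, 8.02, 9.78 and 9.104 in C9orf89-CKO, 11.1, 10.5 and 12.8 in MLPH-CKO, 7.65, 9.28 and 10.1 in MAGI2-CKO and 15.6, 14.6 and 14.8 in RHBDD2-CKO. USP18, which removes ISG15 from proteins and damps the type I receptor, overlapped with Non-target in MAGI2-CKO, lay below it in C9orf89-CKO and was above all other libraries in RHBDD2-CKO. Against Non-target the log2 fold changes (SE 0.13) were -0.43 for C9orf89-CKO (adjusted p = 0.0265), -0.082 for MLPH-CKO (adjusted p = 0.684), -0.43 for MAGI2-CKO (adjusted p = 0.0195) and 0.31 for RHBDD2-CKO (adjusted p = 0.0855). The call in C9orf89-CKO was lost on leaving out any of Non-target replicates 2 and 3 or C9orf89-CKO replicates 1 and 3 (adjusted p = 0.0559 to 0.105) and that in MAGI2-CKO on leaving out any of Non-target replicates 2 and 3 or MAGI2-CKO replicate 1 (adjusted p = 0.0768 to 0.0844). In RHBDD2-CKO, where USP18 did not pass, the median of its 100 nearest tested genes was 0.31, close to its own log2 fold change. USP18 has a near-identical copy, USP41, listed at 0 to 0.179 FPKM, so the split between them is uncertain.

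PARP9 and DTX3L, partners in a complex that adds ADP-ribose and ubiquitin, are divergent neighbours on chromosome 3 whose RefSeq starts lie 446 bases apart. DTX3L was at 1.44, 1.46 and 1.47 FPKM in the 3 Non-target libraries, 1.71, 1.85 and 2.05 in C9orf89-CKO, 1.37, 1.28 and 1.53 in MLPH-CKO, 0.843, 0.791 and 0.812 in MAGI2-CKO and 1.895, 1.93 and 1.404 in RHBDD2-CKO. PARP9 was at 0.795, 0.687 and 0.663 FPKM in the 3 Non-target libraries, 0.786, 0.808 and 0.765 in C9orf89-CKO, 0.588, 0.683 and 0.629 in MLPH-CKO, 0.386, 0.329 and 0.384 in MAGI2-CKO and 0.721, 0.694 and 0.791 in RHBDD2-CKO. MAGI2-CKO lay below all other libraries for both genes. The log2 fold change in MAGI2-CKO was -0.77 ± 0.12 for DTX3L (adjusted p = 0.000339) and -0.80 ± 0.14 for PARP9 (adjusted p = 0.000523), with no call in the other clones. The 100 tested genes nearest to DTX3L had a median of -0.040 in MAGI2-CKO.

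IFI6 and IFI35 were higher in all 4 clones. IFI6 encodes a small mitochondrial and endoplasmic reticulum protein, and IFI35 a protein that binds NMI. IFI6 was at 6.77, 10.01 and 7.58 FPKM in the 3 Non-target libraries, 19.05, 19.4 and 17.9 in C9orf89-CKO, 20.5, 22.1 and 24.7 in MLPH-CKO, 24.8, 19.6 and 21.2 in MAGI2-CKO and 12.7, 12.6 and 11.4 in RHBDD2-CKO. All CKO libraries lay above Non-target, and RHBDD2-CKO lay below the other clones. In limma the log2 fold changes (SE 0.13) were 1.22 for C9orf89-CKO (adjusted p = 2.16e-05), 1.47 for MLPH-CKO (adjusted p = 3.62e-06), 1.43 for MAGI2-CKO (adjusted p = 3.09e-06) and 0.60 for RHBDD2-CKO (adjusted p = 0.00302). IFI35 was at 0.568, 0.687 and 0.635 FPKM in the 3 Non-target libraries, 7.03, 7.96 and 7.999 in C9orf89-CKO, 7.86, 4.57 and 6.08 in MLPH-CKO, 2.64, 2.67 and 3.35 in MAGI2-CKO and 2.82, 2.21 and 2.399 in RHBDD2-CKO. The mean was 12.2-fold that of Non-target in C9orf89-CKO, 9.79-fold in MLPH-CKO, 3.93-fold in RHBDD2-CKO and 4.58-fold in MAGI2-CKO, with no overlap. Compared with the control clone, log2 fold changes (SE 0.17) were 3.41 for C9orf89-CKO (adjusted p = 2.75e-08), 3.07 for MLPH-CKO (adjusted p = 6.57e-08), 2.03 for MAGI2-CKO (adjusted p = 1.59e-06) and 1.82 for RHBDD2-CKO (adjusted p = 5.03e-06).

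Both genes lie in stretches of chromosome whose other genes were higher as well. The 100 tested genes nearest to IFI6 (chr1:27666061-27672218) had median log2 fold changes of 0.53 in C9orf89-CKO, 0.45 in MLPH-CKO, 0.49 in RHBDD2-CKO and 0.53 in MAGI2-CKO, and those nearest to IFI35 (chr17:43006725-43014456) of 0.41 in C9orf89-CKO, 0.47 in MLPH-CKO, 0.27 in RHBDD2-CKO and 0.45 in MAGI2-CKO. The change of IFI35 exceeded that of its neighbours by 1.55 in RHBDD2-CKO, the smallest margin of the 4 clones, whereas IFI6 in RHBDD2-CKO, at 0.60, was close to its neighbours at 0.49. The neighbours of TRIM25 had medians of 0.14 in C9orf89-CKO, 0.17 in MLPH-CKO, 0.14 in RHBDD2-CKO and 0.22 in MAGI2-CKO, and those of TMEM173 of -0.028 in C9orf89-CKO, -0.026 in MLPH-CKO, 0.019 in RHBDD2-CKO and -0.036 in MAGI2-CKO. The part of the neighbourhood in these changes was not tested. IFI27, IFI44 and IFI44L, which are strongly interferon-induced in other cells, reached at most 0.385, 0.02897 and 0.161 FPKM.

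**Figure D2:**
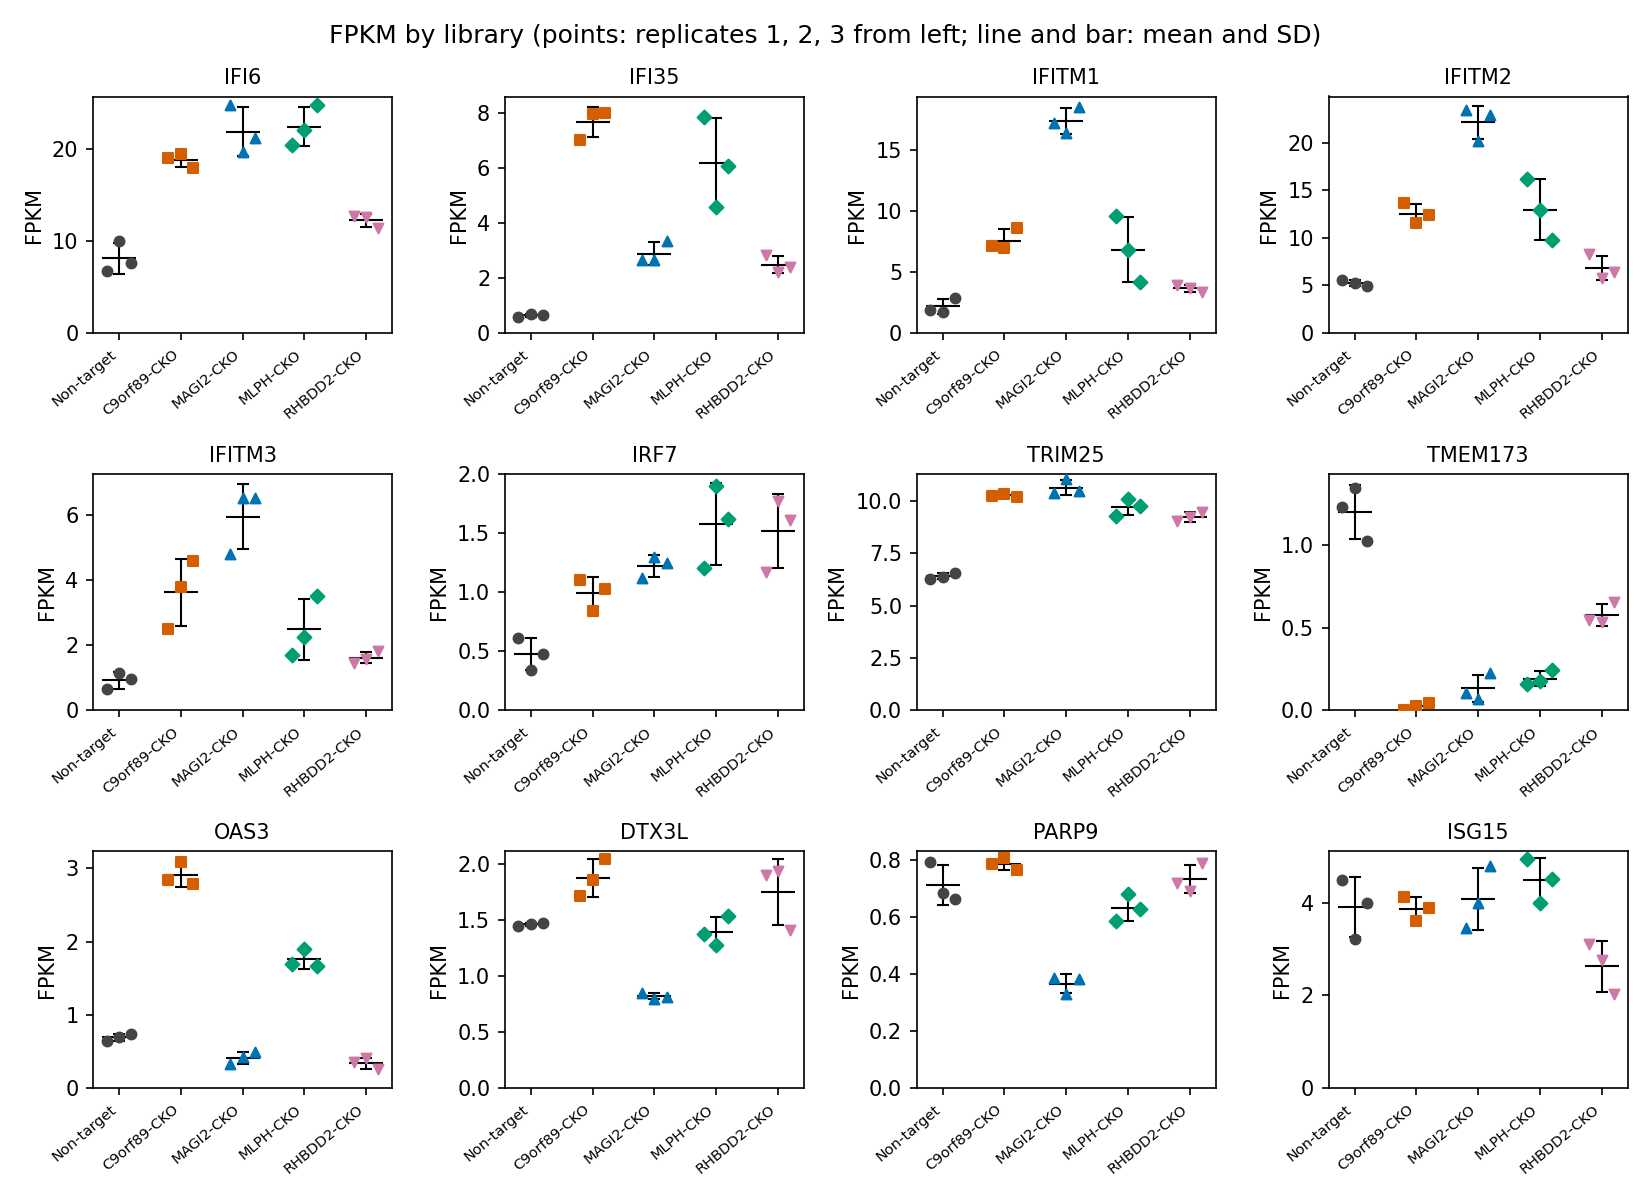
FPKM of 12 genes in each library, with points for the replicates numbered 1, 2 and 3 from the left and the mean and SD of the group in black. Non-target is lowest for IFI6, IFI35, the IFITM genes, IRF7 and TRIM25 and highest for TMEM173, MAGI2-CKO is highest for IFITM1 and IFITM2 and lowest for DTX3L and PARP9, and RHBDD2-CKO is lowest for ISG15.

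The clones also differed from each other. A gene was said to set a group apart if all 4 contrasts of that group with the others were called in 1 direction. Non-target was set apart by 7 of the 27 genes (6.65% of all tested genes), 6 of them lower and TMEM173 higher. C9orf89-CKO was set apart by OAS3 alone (1.48%), higher by a log2 fold change of 0.70 to 2.80 against the other groups (largest adjusted p = 0.0101). MAGI2-CKO was set apart by 4 genes (6.76%). IFITM1 was higher by 1.20 to 2.98 (largest adjusted p = 0.00341) and IFITM2 by 0.80 to 2.06 (0.003496), while PARP9 differed by -0.65 to -0.93 (0.00411) and DTX3L by -0.70 to -1.10 (0.00123).

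MLPH-CKO was set apart by ADAR alone (2.89%), with differences of -0.19 to -0.44 (largest adjusted p = 0.0228), and RHBDD2-CKO by ISG15 alone (11.5%), with -0.56 to -0.77 (largest adjusted p = 0.0218). Without the libraries numbered 1, ADAR no longer set MLPH-CKO apart. The direct contrast between clones does not use the Non-target means, although the Non-target wells enter the shared estimate of the spread. In it MAGI2-CKO exceeded RHBDD2-CKO by 2.23 ± 0.24 for IFITM1 (adjusted p = 1.12e-05), and C9orf89-CKO exceeded MAGI2-CKO by 1.39 ± 0.17 for IFI35 (adjusted p = 7.41e-05).

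Another 71 genes of the pathway were looked at, with 36 of them expressed well enough to test. The 10 interferon genes on this list, among them IFNB1, IFNG and IFNL1, were not tested, with at most 0.0801 FPKM in any library. The chemokine genes CXCL10, CXCL11 and CCL5 reached at most 0.151, 0.0289 and 0.122 FPKM. Of the 36 genes, 13 were higher and 2 lower in C9orf89-CKO, where 12.9% and 13.1% of all tested genes were. In MAGI2-CKO 4 were higher and 10 lower, beside 17.0% and 19.1%. The counts were 9 and 4 in RHBDD2-CKO, beside 17.4% and 16.7%, and 10 and 2 in MLPH-CKO, beside 14.5% and 15.5%. The higher counts in C9orf89-CKO, MLPH-CKO and RHBDD2-CKO include PTPN6, and that in RHBDD2-CKO also includes SAMD9. Both genes entered the test through groups other than Non-target.

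Of the signalling genes, JAK2 and IKBKE were lower in all 4 clones and IFNLR1 was higher in all 4. No other of the 36 tested pathway genes was called in 1 direction in all 4 clones. Of all tested genes 6.65% were, so the number is not read as particular to the pathway. IKBKE encodes a kinase that activates IRF3 and IRF7. IKBKE was at 2.43, 2.61 and 2.84 FPKM in the 3 Non-target libraries, 1.26, 1.22 and 1.11 in C9orf89-CKO, 1.39, 1.22 and 1.48 in MLPH-CKO, 2.01, 1.65 and 2.09 in MAGI2-CKO and 0.479, 0.716 and 0.665 in RHBDD2-CKO. All CKO libraries lay below Non-target, with RHBDD2-CKO the lowest. On the log2 scale the differences from Non-target (SE 0.14) were -1.07 for C9orf89-CKO (adjusted p = 0.000134), -0.90 for MLPH-CKO (adjusted p = 0.000421), -0.44 for MAGI2-CKO (adjusted p = 0.0277) and -1.93 for RHBDD2-CKO (adjusted p = 7.89e-07). The call in MAGI2-CKO was lost on leaving out any of Non-target replicates 2 and 3 or MAGI2-CKO replicate 2 (adjusted p = 0.0621 to 0.1203). JAK2, a receptor kinase used by interferon gamma, had log2 fold changes between -0.83 and -0.63 (largest adjusted p = 0.00412), with its 100 nearest tested genes, lower as well, at medians of -0.44 in C9orf89-CKO, -0.23 in MLPH-CKO, -0.21 in RHBDD2-CKO and -0.29 in MAGI2-CKO. IFNLR1, the receptor chain of interferon lambda, had between 0.95 and 1.23 (largest adjusted p = 9.38e-06), with neighbours at 0.54 in C9orf89-CKO, 0.46 in MLPH-CKO, 0.50 in RHBDD2-CKO and 0.55 in MAGI2-CKO.

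PTPN6, a phosphatase that damps cytokine receptors, was 0.174, 0.219 and 0.296 FPKM in Non-target, 1.46, 1.87 and 1.75 in C9orf89-CKO and 2.25, 2.25 and 2.1996 in MLPH-CKO, with log2 fold changes (SE 0.22) of 2.45 for C9orf89-CKO (adjusted p = 6.20e-06), 2.84 for MLPH-CKO (adjusted p = 1.52e-06) and 1.43 for RHBDD2-CKO (adjusted p = 0.000365). Non-target was below 0.5 FPKM in all its libraries for PTPN6, SAMD9 and DDX60, 3 of the 36 tested pathway genes, so these entered the test through other groups. DDX60 had no call, and the calls of PTPN6 and SAMD9 are no support for a rise of the pathway as a whole.

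UBE2L6, the conjugating enzyme for ISG15, was higher in 3 clones while ISG15 itself was not. UBE2L6 was at 1.08, 1.41 and 1.35 FPKM in the 3 Non-target libraries, 4.22, 4.22 and 4.23 in C9orf89-CKO, 4.21, 4.204 and 3.302 in MLPH-CKO, 3.89, 3.61 and 3.94 in MAGI2-CKO and 1.48, 1.16 and 1.37 in RHBDD2-CKO. C9orf89-CKO, MAGI2-CKO and MLPH-CKO lay above all Non-target libraries and RHBDD2-CKO overlapped with them. The log2 fold changes (SE 0.12) were 1.66 for C9orf89-CKO (adjusted p = 8.58e-07), 1.54 for MLPH-CKO (adjusted p = 1.51e-06), 1.51 for MAGI2-CKO (adjusted p = 1.20e-06) and 0.059 for RHBDD2-CKO (adjusted p = 0.745). HERC5, the ISG15 ligase, was lower in MAGI2-CKO (-1.08 ± 0.098, adjusted p = 3.55e-06) and higher in C9orf89-CKO (0.39 ± 0.098, adjusted p = 0.0107, lost with only the 6 contrasted libraries at adjusted p = 0.0634). Without the libraries numbered 1 it was also lower in MLPH-CKO (adjusted p = 0.0455).

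LGALS3BP, a secreted glycoprotein, had the widest range of the interferon-stimulated genes on this list. LGALS3BP was at 5.41, 6.79 and 6.68 FPKM in the 3 Non-target libraries, 8.74, 11.1 and 11.6 in C9orf89-CKO, 29.1, 37.9 and 36.1 in MLPH-CKO, 66.1, 86.98 and 89.9 in MAGI2-CKO and 3.01, 3.71 and 3.001 in RHBDD2-CKO. MAGI2-CKO lay above all others, then MLPH-CKO, and RHBDD2-CKO lay below Non-target. Against Non-target the log2 fold changes (SE 0.15) were 0.72 for C9orf89-CKO (adjusted p = 0.00394), 2.43 for MLPH-CKO (adjusted p = 1.92e-07), 3.66 for MAGI2-CKO (adjusted p = 5.56e-09) and -0.94 for RHBDD2-CKO (adjusted p = 0.000502). TRIM56, a ubiquitin ligase that acts with STING, was lower in MAGI2-CKO (-1.06 ± 0.16, adjusted p = 0.0002595), where its 100 nearest tested genes had a median of -0.50. It was higher in MLPH-CKO (0.67 ± 0.16, adjusted p = 0.007698) and C9orf89-CKO (0.56 ± 0.16, adjusted p = 0.0228). The last was lost without the libraries numbered 1 (adjusted p = 0.0716) and on leaving out any of Non-target replicates 2 and 3 or C9orf89-CKO replicates 1 and 3 (adjusted p = 0.0521 to 0.0937).

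NMI, the binding partner of IFI35, was 0.644, 0.483 and 0.475 FPKM in Non-target and 1.096, 1.79 and 1.48 in C9orf89-CKO, with a log2 fold change of 1.28 ± 0.20 (adjusted p = 0.000472). IFI35 was also highest in C9orf89-CKO by its mean. Its libraries there overlapped with those of MLPH-CKO, and the direct contrast did not pass (adjusted p = 0.210 in limma). In MLPH-CKO the log2 fold change of NMI was 0.62 ± 0.20 (adjusted p = 0.0318), lost after quantile normalization (adjusted p = 0.105) and on leaving out any of Non-target replicates 2 and 3 or MLPH-CKO replicates 1 and 2 (adjusted p = 0.0909 to 0.0997). SAMD9, a restriction factor of poxviruses, passed in RHBDD2-CKO (1.11 ± 0.18, adjusted p = 0.000548). LAMP3, a lysosomal membrane protein, passed in MLPH-CKO (1.06 ± 0.27, adjusted p = 0.009499) and RHBDD2-CKO (1.25 ± 0.27, adjusted p = 0.00331), the former lost with only the 6 contrasted libraries (adjusted p = 0.0939).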

How the data were processed

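RNA of HEK293T clones was sequenced as poly-A mRNA libraries, 3 for each of 5 groups, and grouped by the deposited labels. The authors deposited 1 table per library, and the unit, not named in the sources used here, was worked out as FPKM: each value times the merged exon length of its gene in GENCODE v29 (GRCh38) was a whole number of fragments, within 0.02, in the unit of its library. The submitters' processing notes name HISAT2 2.0.5, featureCounts 1.5.0-p3 and DESeq2 without their role. Genes with at least 0.5 FPKM in 3 libraries (16175) were fitted in R 4.3.3 by limma 3.58.1, on values of log2(FPKM + 0.1), with the 15 libraries in 1 model with a variance trend, and p-values were adjusted by Benjamini-Hochberg within each contrast at 0.05. Medians, neighbours and promoter letters were computed in Python 3.11.15 with pandas 2.3.3 and carry no test.
The 44 genes, the other lists and the tests were chosen with earlier results of these data known. Values in every library are given for those of the 44 genes with a call of at least 1 log2 and a mean of at least 1 FPKM in a group, for those that set a group apart and for the highest gene of each role in Non-target. Other pathway genes that met the first of these rules are named. Other genes were added after their values were seen. On simulated data with 16175 genes, 200 of them changed in MAGI2-CKO, the fit recovered 81 of 94 genes changed by 1 log2 and 98 of 106 changed by 2 log2, and called 11 unchanged genes. Some genes of the marker and pathway lists are not reported here.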

Additional observations from a re-analysis of the deposited data

Results flagged for a closer look

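Of the 27 tested genes, 2 were called in opposite directions from Non-target in different clones. The share of all tested genes called so is not given here. OAS3 was higher in C9orf89-CKO and MLPH-CKO and lower in MAGI2-CKO and RHBDD2-CKO. Contrasted directly in limma (SE 0.16), MAGI2-CKO minus C9orf89-CKO was -2.57 (adjusted p = 2.63e-07), RHBDD2-CKO minus C9orf89-CKO -2.80 (adjusted p = 5.50e-08), MLPH-CKO minus MAGI2-CKO 1.87 (adjusted p = 4.16e-06) and RHBDD2-CKO minus MLPH-CKO -2.10 (adjusted p = 6.56e-07). For ADAR, RHBDD2-CKO minus MLPH-CKO was 0.44 ± 0.058 (adjusted p = 7.42e-05). Each group is 1 clone, so the target gene and the clone cannot be told apart.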

How the results depend on the processing

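Over 25 other settings, 15 of which left out 1 library each, 68 of the 88 gene and clone calls followed passed in every setting that tested the gene and 20 were lost in at least 1. For 11 of the 88, on genes with a mean under 1 FPKM, there were 24 settings, since the filter at that mean left them out. Of 26 uncalled results followed, 8 passed in at least 1 setting. The size of some log2 fold changes moved by more than 1.5 times over the settings. In C9orf89-CKO, for example, TMEM173 ranged from -5.57 to -1.10, IRF7 from 0.43 to 1.10 and PTPN6 from 1.13 to 2.87. In RHBDD2-CKO OAS3 ranged from -1.05 to -0.34. The 20 lost calls are named in the report, but not all beside every setting that lost them. With only the 6 contrasted libraries, IFNAR1, IRF3 and USP18 in MAGI2-CKO, USP18 and TRIM56 in C9orf89-CKO and NMI in MLPH-CKO were also lost. Quantile normalization lost IFNGR1 in C9orf89-CKO and IFNGR2 in MAGI2-CKO as well. IFNGR2 was also lost there without the variance trend. Without the filter on low values, IFNGR2 and IKBKE in MAGI2-CKO and NMI in MLPH-CKO were lost. Counts of higher and lower genes stayed within 1.5 times, with a few exceptions, and the cause of those was not tested. Shares over all tested genes, which can move with the setting, are not given for the counts in this and the next paragraph. A change in such a count is therefore not read as particular to these genes. The genes lower in MLPH-CKO went from 3 to 1 with only the 6 contrasted libraries. Leaving out 1 library, the genes lower in C9orf89-CKO ranged from 1 to 4 (1 without Non-target replicate 2 or 3 or C9orf89-CKO replicate 1), and those lower in RHBDD2-CKO from 2 to 5 (2 without Non-target replicate 1).
The genes that set C9orf89-CKO apart went from 1 to 2 without the variance trend, with a pseudocount of 0.01 and with voom weights, and ranged from 1 to 2 leaving out 1 library (2 without MAGI2-CKO replicate 2 or MLPH-CKO replicate 1). Those that set MLPH-CKO apart went from 1 to 0 after quantile normalization, with only the 6 contrasted libraries and without the libraries numbered 1, and ranged from 0 to 1 leaving out 1 library (0 without Non-target replicate 1 or 3 or MLPH-CKO replicate 1). Those that set RHBDD2-CKO apart were 2 after quantile normalization, 0 with only the 6 contrasted libraries, 0 with voom weights, 2 without the libraries numbered 1, and 0 to 2 leaving out 1 library (0 without Non-target replicate 1 or 3, C9orf89-CKO replicate 1 or 3 or RHBDD2-CKO replicate 3, 2 without MAGI2-CKO replicate 1 or RHBDD2-CKO replicate 1).
PTPN6 in MAGI2-CKO, not called, went from 0.23 to -0.098 after quantile normalization and ranged from -0.054 to 0.44 leaving out 1 library (-0.054 without MAGI2-CKO replicate 2), and BST2 in MLPH-CKO, not called, went from 0.46 to -0.025 without the libraries numbered 1, an alternative chosen after seeing the data.
The replicate numbers were not taken as pairs. The median correlation of deviations from the group means was 0.086 over the 30 same-numbered pairs (lowest 0.0010, highest 0.31, 12 pairs over 0.1) and -0.089 over the 60 pairs with different numbers (2 over 0.1), and 11 of 15 libraries correlated best with their own number. With the replicate number as a block, 12 genes were higher in RHBDD2-CKO (21.0% of all tested genes), with DDX58 (adjusted p = 0.0443), IFITM2 (0.0326) and USP18 (0.0321) added, and 13 in MLPH-CKO (18.0%), with IFIH1 added (adjusted p = 0.0484). IFIH1 entered the test through the clones in which it was higher, so its call is no support for a rise. With the block, OAS3 and TMEM173, 2 genes, set C9orf89-CKO apart (2.60%) and ISG15, ADAR and USP18, 3 genes, RHBDD2-CKO (14.96%). IFITM2 was added to the genes that set Non-target apart (9.64%) and IFITM3 to those that set MAGI2-CKO apart (9.34%).
At 15517856 to 19489918 fragments per library, the genes that did not reach 0.5 FPKM in 3 libraries rest on few fragments, and differences among them were not tested.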

Other observations

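Among the pathway genes not described above, TBK1, the kinase that acts on IRF3 beside IKBKE, was higher in 3 clones. It was 7.06, 6.78 and 7.07 FPKM in Non-target and 9.91, 8.74 and 8.76 in RHBDD2-CKO, with log2 fold changes (SE 0.064) of 0.26 for C9orf89-CKO (adjusted p = 0.0105), 0.23 for MLPH-CKO (adjusted p = 0.0175) and 0.38 for RHBDD2-CKO (adjusted p = 0.000614) in limma, and it did not pass in MAGI2-CKO (-0.13). ZC3HAV1, which targets CG-rich viral RNA, was 10.5, 9.26 and 10.05 FPKM in Non-target and 14.99, 14.7 and 13.5 in C9orf89-CKO, above all other libraries (0.53 ± 0.076, adjusted p = 0.000265), and without the libraries numbered 1 it was higher in all 4 clones (largest adjusted p = 0.0385). PNPT1, a mitochondrial RNase, was 20.1, 20.1 and 20.2 FPKM in Non-target and 16.3, 15.3 and 15.5 in MAGI2-CKO, below all other libraries (-0.36 ± 0.061, adjusted p = 0.000544). These genes were named after their values were seen.

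IFI44L, which did not reach the filter, was 0.122, 0.101 and 0.0779 FPKM in Non-target and 0.0107, 0.00518 and 0 in MLPH-CKO, below all other libraries, and 0.161, 0.121 and 0.155 in MAGI2-CKO. The fragments behind these values were 14 to 20 in Non-target, and no test was made.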
